A study of Mus musculus with 8 samples.

Results

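To examine NF-YA binding at genes that encode growth and stress transcription factors, 57 of 7196 NF-YA peaks were selected by the symbol of the assigned gene. These peaks were assigned to 46 of the 3978 genes with a peak. The selection took protein-coding genes of the SP, KLF, E2F and DP, MYC, AP-1, ATF and CREB, C/EBP, ETS1/2 and ELK, NF-Y, NRF1 and NFE2L, FOXO, STAT, IRF and NF-kB families, together with *Cic*, *Hif1a*, *Yy1*, the USF genes and the EGR genes, and used no measured value. The symbols also took in 3 cofactor genes that do not themselves encode DNA-binding factors, *Irf2bp1*, *Irf2bp2* and *Crebrf*, and without these 53 peaks in 43 genes remained.

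NF-Y is a trimer of NF-YA, NF-YB and NF-YC that recognises the CCAAT pentamer, a common element of promoters just upstream of the transcription start. NF-YA carries the sequence-specific contact, and the histone-fold partners NF-YB and NF-YC hold it on DNA. NF-Y often acts beside GC-box factors such as SP1 and is known for its role at cell-cycle and stress-response promoters, while TAF4A is a subunit of the general transcription factor TFIID.

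Binding was measured by CUT&RUN, in which an antibody tethers a nuclease to chromatin and the released DNA is sequenced, in cultured, activated and proliferating muscle stem cells (MuSCs) of C57BL/6 mice aged 8 to 20 weeks. In Taf4asKO mice, a Pax7CreERT allele, which is active in MuSCs after tamoxifen, deleted exons 11 and 12 of floxed *Taf4a*. The study describes its controls as *Taf4a* fl/fl littermates without the Cre allele or carrying it, but the labels of the control libraries read WT. Whether floxed *Taf4a* was common to both genotypes is therefore not settled, and some mice of either genotype could also carry a Pax7-zsGreen reporter. Each genotype had 2 NF-YA libraries, and the sources used here do not say whether these came from separate mice, so that p-values measure only the spread between these libraries. The IgG libraries were not analysed here. Binding data hold no expression, so that neither the cell type nor the loss of *Taf4a* could be checked with marker genes.

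All values are reads per peak after normalisation with DESeq2 by the authors, rounded to whole numbers. The value of 1 read, recovered from the steps between low values, showed that the libraries held between 111255 and 735128 reads in peaks, of which 2355 to 14387 lay in the 57 peaks. The control libraries had the lowest numbers and the Taf4asKO libraries the highest, so that depth in peaks and genotype cannot be told apart.

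*Sp1*, *Sp2*, *Cic* and *Klf9* are shown first because, with an *Nfe2l1* peak given further on, their peaks held the most CCAAT copies. SP1 and SP2 are zinc finger proteins of the GC-box family, CIC (Capicua) is a repressor of growth factor response genes, and KLF9 is a Krueppel-like factor induced by hormones. Capitals mark CCAAT, or ATTGG where the pentamer lies on the other strand, and each window is the stretch of up to 300 bases within the peak with the most copies and no base of an annotated UTR. All sequences are from the RefSeq genome GRCm38.p6 (mm10) and are written on the strand of the gene.
*Cic* (chr7:25267990-25268289, plus strand): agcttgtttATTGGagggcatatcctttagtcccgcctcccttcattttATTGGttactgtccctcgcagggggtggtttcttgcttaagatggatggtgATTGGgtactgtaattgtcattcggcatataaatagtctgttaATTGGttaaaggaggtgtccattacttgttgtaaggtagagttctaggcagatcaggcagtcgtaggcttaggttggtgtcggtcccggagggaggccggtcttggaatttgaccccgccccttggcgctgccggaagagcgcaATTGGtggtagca
*Sp1* (chr15:102405603-102405902, plus strand): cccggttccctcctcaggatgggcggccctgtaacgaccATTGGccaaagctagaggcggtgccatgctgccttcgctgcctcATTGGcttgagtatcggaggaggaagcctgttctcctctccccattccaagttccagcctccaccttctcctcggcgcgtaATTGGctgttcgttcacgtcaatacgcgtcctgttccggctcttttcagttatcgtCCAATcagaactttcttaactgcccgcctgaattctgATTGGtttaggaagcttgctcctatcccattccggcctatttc
*Sp2* (chr11:96977726-96978025, minus strand): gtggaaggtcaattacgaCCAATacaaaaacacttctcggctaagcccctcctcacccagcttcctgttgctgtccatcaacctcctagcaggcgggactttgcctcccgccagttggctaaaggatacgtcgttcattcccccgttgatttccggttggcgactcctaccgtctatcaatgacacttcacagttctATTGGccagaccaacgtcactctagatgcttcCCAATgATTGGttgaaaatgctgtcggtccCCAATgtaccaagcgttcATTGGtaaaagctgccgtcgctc
*Klf9* (chr19:23140605-23140904, plus strand): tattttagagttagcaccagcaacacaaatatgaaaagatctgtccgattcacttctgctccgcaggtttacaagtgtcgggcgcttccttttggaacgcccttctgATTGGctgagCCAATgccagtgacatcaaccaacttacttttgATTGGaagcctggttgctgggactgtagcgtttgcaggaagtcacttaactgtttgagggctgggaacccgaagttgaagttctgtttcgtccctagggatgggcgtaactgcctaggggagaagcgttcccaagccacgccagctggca

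The *Cic* window held 5 of the 11 copies in its peak, the *Sp1* window 5 of 8, the *Sp2* window 6 of 8 and the *Klf9* window 3 of 6. In the *Cic* peak 10 of 11 copies and in the *Sp1* peak 7 of 8 copies read ATTGG along the gene. Both orientations occurred in the *Sp2* peak, with 3 copies on the strand of the gene and 5 on the other. Neighbouring copies were 56 bases apart in the median in the *Cic* and *Sp1* peaks and 32 bases apart in the *Sp2* peak.

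The genes of the NF-Y subunits themselves are shown because all 3 held an NF-YA peak. Windows of up to 120 bases are given, and that of *Nfyb* is shorter because UTR bases were left out.
*Nfya* (chr17:48409506-48409625, minus strand): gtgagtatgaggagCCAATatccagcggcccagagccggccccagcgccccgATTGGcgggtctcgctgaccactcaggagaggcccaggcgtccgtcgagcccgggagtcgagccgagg
*Nfyb* (chr10:82763924-82764003, minus strand): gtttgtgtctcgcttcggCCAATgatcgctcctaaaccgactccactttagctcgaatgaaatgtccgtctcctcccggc
*Nfyc* (chr4:120825190-120825309, minus strand): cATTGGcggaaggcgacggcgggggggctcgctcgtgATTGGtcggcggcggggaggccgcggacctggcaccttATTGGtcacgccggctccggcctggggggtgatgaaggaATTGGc

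In the *Nfyc* peak 4 copies stood 36, 38 and 39 bases apart and all read ATTGG along the gene. The *Nfya* peak held 4 copies, with gaps of 27, 53 and 38 bases, and the *Nfyb* peak held 3.

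The next windows come from peaks that lay at or upstream of a transcript start, most of them inside the gene, and from the *Mycl* peak, which differed most between the genotypes. E2F2 and E2F3 are cell-cycle factors, MYCL is a MYC family factor, NFE2L1 controls proteasome and antioxidant genes, HIF1A is the oxygen-regulated subunit of the hypoxia factor, and ELK1 is an ETS factor activated by MAP kinases.
*E2f3* (chr13:29986114-29986233, minus strand): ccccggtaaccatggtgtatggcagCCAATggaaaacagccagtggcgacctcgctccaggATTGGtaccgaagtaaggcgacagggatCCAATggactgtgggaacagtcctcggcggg
*E2f2* (chr4:136180571-136180690, plus strand): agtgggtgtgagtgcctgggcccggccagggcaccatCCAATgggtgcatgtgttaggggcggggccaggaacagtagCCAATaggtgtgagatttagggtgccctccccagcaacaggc
*Mycl* (chr4:122998676-122998791, plus strand): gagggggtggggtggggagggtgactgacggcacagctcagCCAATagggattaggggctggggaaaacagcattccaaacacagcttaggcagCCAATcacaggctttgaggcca
*Nfe2l1* (chr11:96824131-96824330, minus strand): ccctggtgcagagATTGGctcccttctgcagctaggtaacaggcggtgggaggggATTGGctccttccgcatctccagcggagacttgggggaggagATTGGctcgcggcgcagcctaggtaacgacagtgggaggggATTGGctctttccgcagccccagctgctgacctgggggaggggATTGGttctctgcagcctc
*Hif1a* (chr12:73907753-73907872, plus strand): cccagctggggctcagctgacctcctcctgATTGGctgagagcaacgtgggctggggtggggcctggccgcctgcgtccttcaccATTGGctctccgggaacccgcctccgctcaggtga
*Elk1* (chrX:20950620-20950739, minus strand): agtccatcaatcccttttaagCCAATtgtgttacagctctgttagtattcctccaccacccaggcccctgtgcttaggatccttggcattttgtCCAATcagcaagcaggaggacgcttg

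The *Nfe2l1* peak shown, 5757 bases from the assigned start, held 6 copies, of which neighbours stood 41, 42, 42, 43 and 51 bases apart. As a peak without the pentamer, the central stretch of the *Foxo3* peak is given. FOXO3 is a forkhead factor of the insulin pathway, and no match says only that these letters are not in this window.
*Foxo3* (chr10:42277785-42277904, minus strand): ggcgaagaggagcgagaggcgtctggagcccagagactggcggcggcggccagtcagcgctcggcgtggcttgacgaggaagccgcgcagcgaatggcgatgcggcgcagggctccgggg

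Across the 57 peaks, CCAAT or ATTGG was present in the central 200 bases of 48 (84.2%), close to 83.0% of all 3837 peaks assigned to protein-coding genes and 78.5% of all 7196 peaks. The longer form of the site, CCAAT followed by C or G and then by A or G, which always holds the pentamer and was searched on both strands, was present in 38 (66.7%), against 66.2% of the protein-coding peaks and 58.6% of all peaks. At least 2 copies of the pentamer lay in the central 200 bases of 32 peaks (56.1%, against 44.5% of the protein-coding peaks). The GC box GGGCGG, also searched on both strands, was found in the central 200 bases of 31 peaks (54.4%, against 44.5% of the protein-coding and 27.8% of all peaks). These shares are descriptions, and the differences were not tested.

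A central window missed copies in the wide peaks. Of the 9 peaks without CCAAT in the central 200 bases, 4 held copies further out. The *Cic* peak held 11 copies, the nearest 156 bases from its centre. The *Klf9* peak held 6 copies, the nearest 131 bases from its centre. The *Fosb* peak 1664 bases from its start held 3 copies, and the *Klf10* peak 211 bases from its start held 2. FOSB is an AP-1 subunit of the immediate-early response and KLF10 is a TGF-beta inducible factor. The other 5 peaks held no copy anywhere, namely the *Foxo3* peak, the weaker peaks of *Fosb* and *Nfkb2*, and 2 of the 5 *Nfe2l1* peaks. The weak *Myc* peak held none within its called borders and 1 in the central 200 bases, which reach past those borders.

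**Figure D1:**
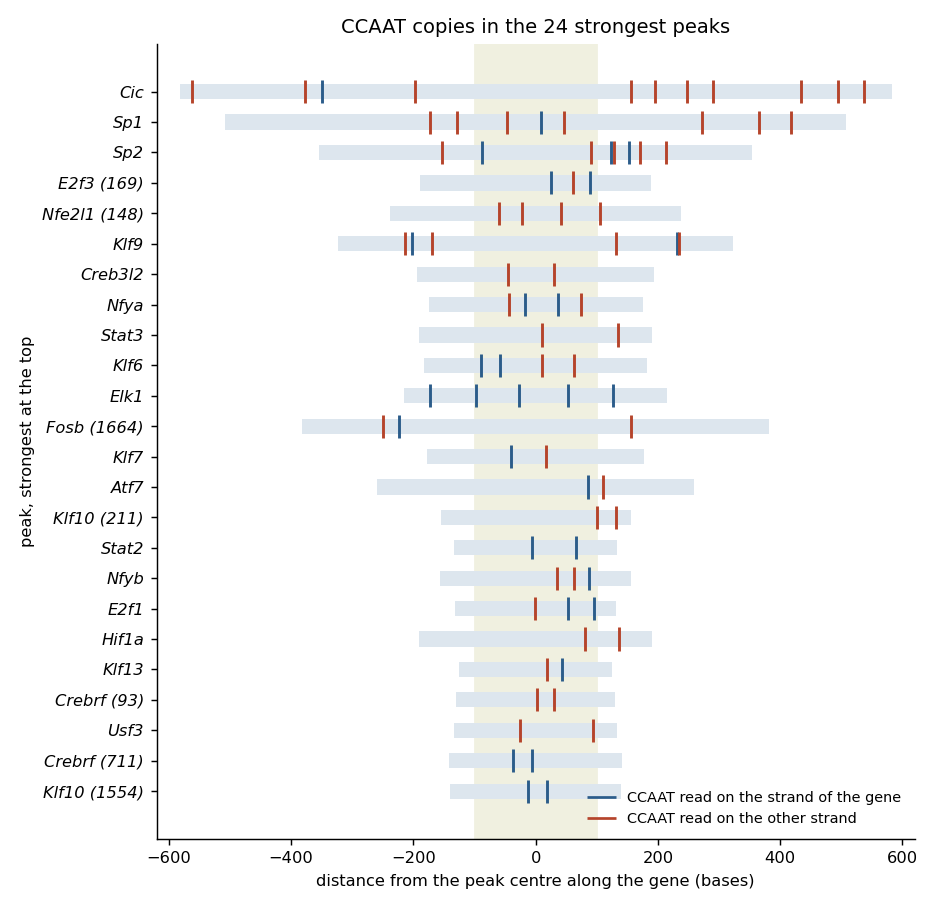
CCAAT copies in the 24 strongest of the 57 peaks. Grey-blue bars are the called peaks drawn to scale around their centres in bases, vertical marks are CCAAT copies on the strand of the gene (blue) or on the other strand (red), and the shaded band is the central 200 bases. The *Cic* and *Klf9* peaks have no mark in the band but 11 and 6 outside it, and the *Sp1* peak has 3 inside and 5 outside.

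All 57 peaks together held 139 copies in their called borders, 58 on the strand of the gene and 81 on the other. The 88 pairs of neighbouring copies stood 43 bases apart in the median, and 29 pairs stood 25 to 40 bases apart. Peaks with more copies tended to be stronger, with a Spearman rho of 0.70 over the 57 peaks and 0.68 over the protein-coding peaks. Peak strength also followed peak width, with a rho of 0.89 over the 57 peaks, and a wider peak has room for more copies, so that copies and width share this relation.

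The peaks were wider and stronger than most. Their median width was 250 bases, against 200 in protein-coding peaks and 171 in all peaks, and the median of the mean value over 4 libraries was 65.8, against 34.5 and 17.3. A mean of at least 100 was reached by 19 of the 57 (33.3%), by 22.6% of the protein-coding peaks and by 13.5% of all peaks. At 1165 bases, the *Cic* peak was the widest of all 7196. By mean value the *Cic* peak ranked 2, the *Sp1* peak 3 and the *Sp2* peak 46 among all peaks.

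Of 133 protein-coding genes with such symbols in GENCODE M21, 46 (34.6%) held a peak, against 3197 of all 22028 protein-coding genes (14.5%), and the difference was not tested. The families differed in how many of their genes held a peak. All 3 NF-Y genes did, as did 6 of 10 E2F and DP genes, 3 of 5 MYC network genes, 2 of 4 FOXO genes and 7 of 17 KLF genes. A peak was also held by 4 of 11 single factor symbols, 3 of 9 SP factors, 6 of 19 STAT and IRF symbols and 5 of 16 ATF and CREB symbols. Only 2 of 7 AP-1 genes held a peak, *Fosb* and *Junb*, while *Fos*, *Fosl1*, *Fosl2*, *Jun* and *Jund* held none. In the C/EBP family, whose founding name also refers to CCAAT, only *Cebpg* of 7 symbols held a peak, and in the NF-kB group, which by symbol also takes in inhibitors and unrelated genes such as *Reln*, *Nfkb2* and *Rela* of 16. *Nfe2l2*, *Nrf1*, *Max*, *Mycn*, *Atf3*, *Creb1*, *Ets1*, *Ets2*, *Usf1*, *Usf2* and the EGR genes were without a peak. A gene without a peak had none within 10000 bases that the authors assigned to it, which is no measure of weaker signal.

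Most peaks lay at gene starts. The centre was within 1000 bases of the assigned start in 38 of 57 peaks (66.7%, against 67.4% of the protein-coding peaks). Within 200 bases of it lay 24 peaks (42.1%, against 49.2%). The remaining 19 peaks were further away, and 9 of these (47.4%) lay within 1000 bases of the start of another annotated transcript of the same gene, against 19.4% of the 1251 protein-coding peaks that far from their assigned start. This difference was not tested.

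These 9 peaks were placed as follows. The strong *Sp2* peak lay 5042 bases from the assigned start but 206 bases upstream of the start of transcript Sp2-203. The *Hif1a* peak lay 200 bases upstream of Hif1a-203, and the *Mycl* peak 147 bases upstream of Mycl-203. E2F2 is an activator of S-phase genes, and its peak, 8259 bases from the assigned start, lay 131 bases upstream of E2f2-202. The *Nfe2l1* peaks at 5757 and 7103 bases lay 84 and 140 bases upstream of Nfe2l1-212 and Nfe2l1-206, and the *Klf10* peak at 1554 bases lay 70 bases upstream of Klf10-202. The *Nfyc* and *Irf2* peaks lay downstream of a start, by 518 bases from Nfyc-206 and 939 bases from Irf2-203. In 7 of the 9, the peak centre was thus 70 to 206 bases upstream of an alternative start, all in introns of the gene as annotated at the peak centre. Whether MuSCs make these transcripts is not given by binding data.

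**Figure D2:**
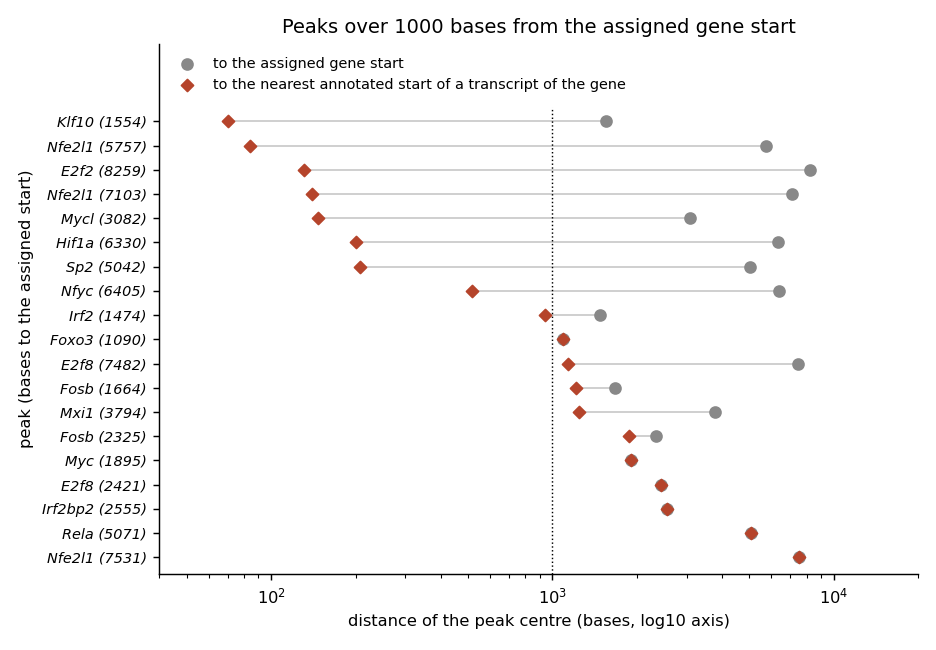
Distance of the peak centre, in bases on a log10 axis, from the assigned gene start (grey circles) and from the nearest annotated start of a transcript of the same gene (red diamonds), for the 19 peaks over 1000 bases from the assigned start. The dotted line stands at 1000 bases, and 9 diamonds lie to its left.

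Of the 47 peaks near a start of their gene, 38 were centred upstream of it. In the 45 of these 47 peaks that held CCAAT, the copy nearest the peak centre lay a median of 104 bases upstream of the start, and in 23 it lay 30 to 150 bases upstream. Some peaks could belong to a neighbour as well. The *Nfya* peak was centred 369 bases from the start of *Oard1*, and the *Atf7* peak 207 bases from that of Gm28047. The *Elk1* peak lay in an intron of *Uxt*. By annotation the centres of 31 peaks were intergenic, 18 intronic, 6 in a UTR and 2 in another exon.

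The comparison between control and Taf4asKO MuSCs asked whether NF-YA binding at these genes changes without TAF4A. Of the 57 peaks, 53 had a mean value of at least 10 and were tested with limma on log2(value + 1), together with 4693 others, and fold changes on this scale understate those of low peaks. Among the 53, 1 peak passed a limma adjusted p of 0.05, at *Mycl*, and it was lower in Taf4asKO. In the background 0.948% of all 4746 tested peaks passed (0.611% lower in Taf4asKO), so that 1 of 53 (1.89%) stands on a single peak. An unadjusted limma p under 0.05 was reached by 7 of the 53 (13.2%, against 17.9% of all tested peaks), and all 7 were lower in Taf4asKO (10.9% of all tested peaks were lower at this p). Of these 7, 6 had a mean of at least 100.

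The libraries of the genotypes did not overlap in 23 of the 53 peaks (43.4%, against 47.9% of all tested peaks), with both Taf4asKO values below both control values in 18 (34.0%, against 28.6%) and above them in 5 (9.43%, against 19.3%). The median log2 difference was -0.12, against -0.04 over all tested peaks, and 33 of 53 differences were below 0 (62.3%, against 53.8%). When a library was left out, the median of the 53 peaks lay between -0.24 and -0.07, with 27 to 38 of them below 0. The difference varied with the strength of the peaks. Among the 19 peaks whose mean reached 100, 16 (84.2%) were below 0 with a median of -0.26, against 84.7% and a median of -0.22 for all 971 peaks of that strength. Among the 15 peaks with a mean of 50 to 100, the median was -0.02 (all peaks: -0.06), and among the 10 with a mean of 20 to 50 it was 0.11 (all peaks: 0.07). The 9 weakest, with a mean of 10 to 20, had a median of -0.12 with 5 below 0 (55.6%), whereas all 1417 peaks of that strength had a median of 0.16 with 40.3% below 0. Scaling the libraries to equal totals in place of the deposited normalisation moved the median of the 53 peaks to 0.03 and that of all tested peaks to 0.10, and 24 of the 53 were then below 0. The log2 differences of 28 of these peaks, whose values under each alternative were compared, rose by 0.13 to 0.14 with equal totals, so that a small negative difference shrank or turned. The general direction of the peaks therefore depends on the scaling.

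**Figure D3:**
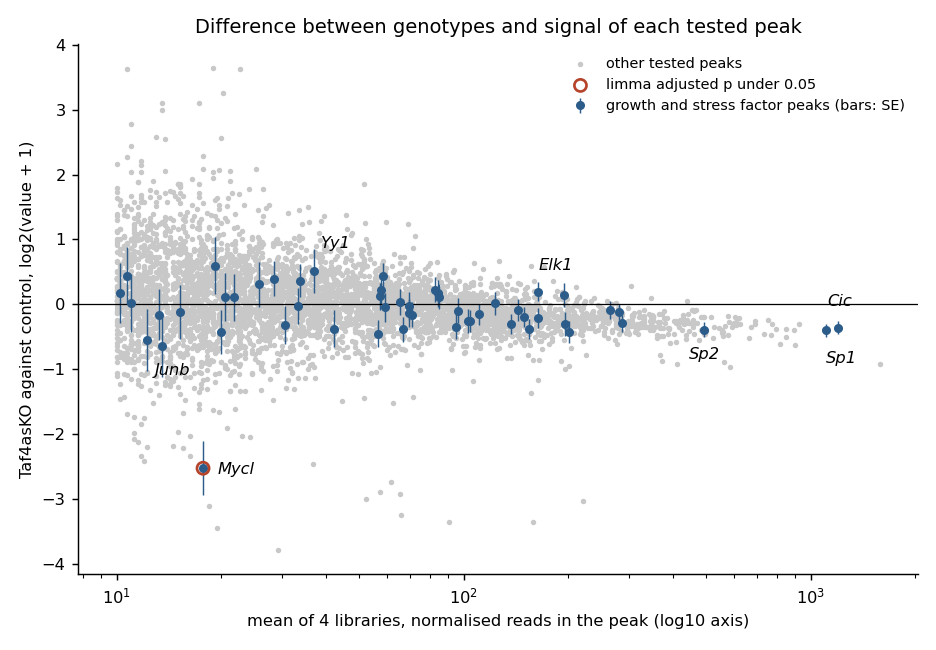
Difference between Taf4asKO and control on the log2(value + 1) scale against the mean of the 4 libraries (log10 axis) for the 53 tested peaks (blue, bars are the SE of the limma fit) among all 4746 tested peaks (grey). The *Mycl* peak, circled, is the only one of the 53 beyond 1 in either direction, and the strongest peaks at the right lie below 0 together with the other strong peaks.

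*Mycl* showed the largest difference. This peak of 116 bases (chr4:122998676-122998791), shown above with its 2 CCAAT copies, had values of 26 and 36 in the control libraries and 4 and 5 in the Taf4asKO libraries. Both Taf4asKO values were far below both control values. The means were 31.0 ± 7.07 in control against 4.50 ± 0.707 in Taf4asKO (SD, n = 2), a log2 difference of -2.53 with an SE of 0.42 and a limma adjusted p of 0.0316. These values stand for about 24.9 and 11.04 reads in the control libraries and 9.28 and 7.34 reads in the Taf4asKO libraries. The reads were thus few in each, although the Taf4asKO libraries held more reads in peaks. Leaving out any 1 of the 4 libraries leaves a lone library in its genotype, so that only the log2 difference is given, -2.76 to -2.30. Testing without a minimum ended the call (limma adjusted p 0.285), but there 0 of all 7196 peaks passed. Over the alternatives with all 4 libraries that gave a value for this peak, the limma adjusted p ranged from 0.00188 to 0.285. The other MYC network peaks were those of *Mxi1*, which encodes a MAX-binding antagonist of MYC, and *Myc*. *Mxi1* had 78 and 72 in control against 69 and 65 in Taf4asKO, lower in both but by only -0.16 ± 0.19 (SE, limma adjusted p = 0.680, between -0.22 and -0.10 when a library was left out). The *Myc* peak, 1895 bases from the start, was too weak to test (control 8 and 0, Taf4asKO 7 and 8).

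Among the SP factors, the *Sp1* peak (chr15:102405308-102406324) had 1187 and 1324 in control against 922 and 978 in Taf4asKO. The *Sp2* peak (chr11:96977563-96978271) had 558 in both control libraries and 415 and 436 in Taf4asKO. Both Taf4asKO libraries were below both control libraries at each of these peaks. *Sp1* gave 1255.5 ± 96.9 against 950 ± 39.6 (SD, n = 2), a log2 difference of -0.40 ± 0.10 (SE, limma adjusted p = 0.0970). *Sp2* gave 558 ± 0 against 425.5 ± 14.8, a log2 difference of -0.39 ± 0.11 (SE, limma adjusted p = 0.126). Neither passed the threshold as fitted. *Sp4*, which encodes a relative of SP1 enriched in neurons, held the weakest SP peak, with 33 and 26 in control against 37 and 39 in Taf4asKO.

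The peak of *Cic* (chr7:25267263-25268427) had 1372 and 1321 in control against 985 and 1114 in Taf4asKO, without overlap. The means were 1346.5 ± 36.1 and 1049.5 ± 91.2 (SD, n = 2), and the log2 difference was -0.36 ± 0.10 (SE, limma adjusted p = 0.110). With the libraries scaled to equal medians, *Cic*, *Sp1* and *Sp2* each passed, with limma adjusted p of 0.0294, 0.0410 and 0.0461. Among all 4746 tested peaks 129 passed with this scaling (45 as fitted), 97 of them lower in Taf4asKO. With weights from the estimated reads *Sp1* passed with a limma adjusted p of 0.0394, and 227 of all tested peaks passed. Scaled to equal totals, none of these 3 peaks passed, with differences of -0.22, -0.26 and -0.25 and limma adjusted p of 0.0658, 0.0744 and 0.112. Over the alternatives with all 4 libraries the limma adjusted p ran up to 0.285 for each of the 3 peaks. This was without a minimum, where 0 of all 7196 peaks passed. When a library was left out, the difference lay between -0.45 and -0.27 at *Cic*, -0.48 and -0.32 at *Sp1*, and -0.43 and -0.36 at *Sp2*. For comparison, the median difference of all tested peaks whose mean reached 100 was -0.22, and whether these 3 peaks differ from it was not tested.

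The remaining single factors were weaker. *Hif1a* had 113 and 111 in control against 82 and 106 in Taf4asKO, below control in both libraries, with a log2 difference of -0.26 ± 0.19 (SE, limma adjusted p = 0.473, between -0.45 and -0.08 when a library was left out). *Yy1*, a zinc finger factor that can activate or repress, had 43 and 20 in control against 39 and 46 in Taf4asKO (0.51 ± 0.34 SE on the log2 scale, limma adjusted p = 0.450, between -0.02 and 1.05 when a library was left out), with control libraries far apart and overlapping ranges. *Usf3* encodes a large bHLH protein and had 80 and 82 in control against 78 and 99 in Taf4asKO.

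**Figure D4:**
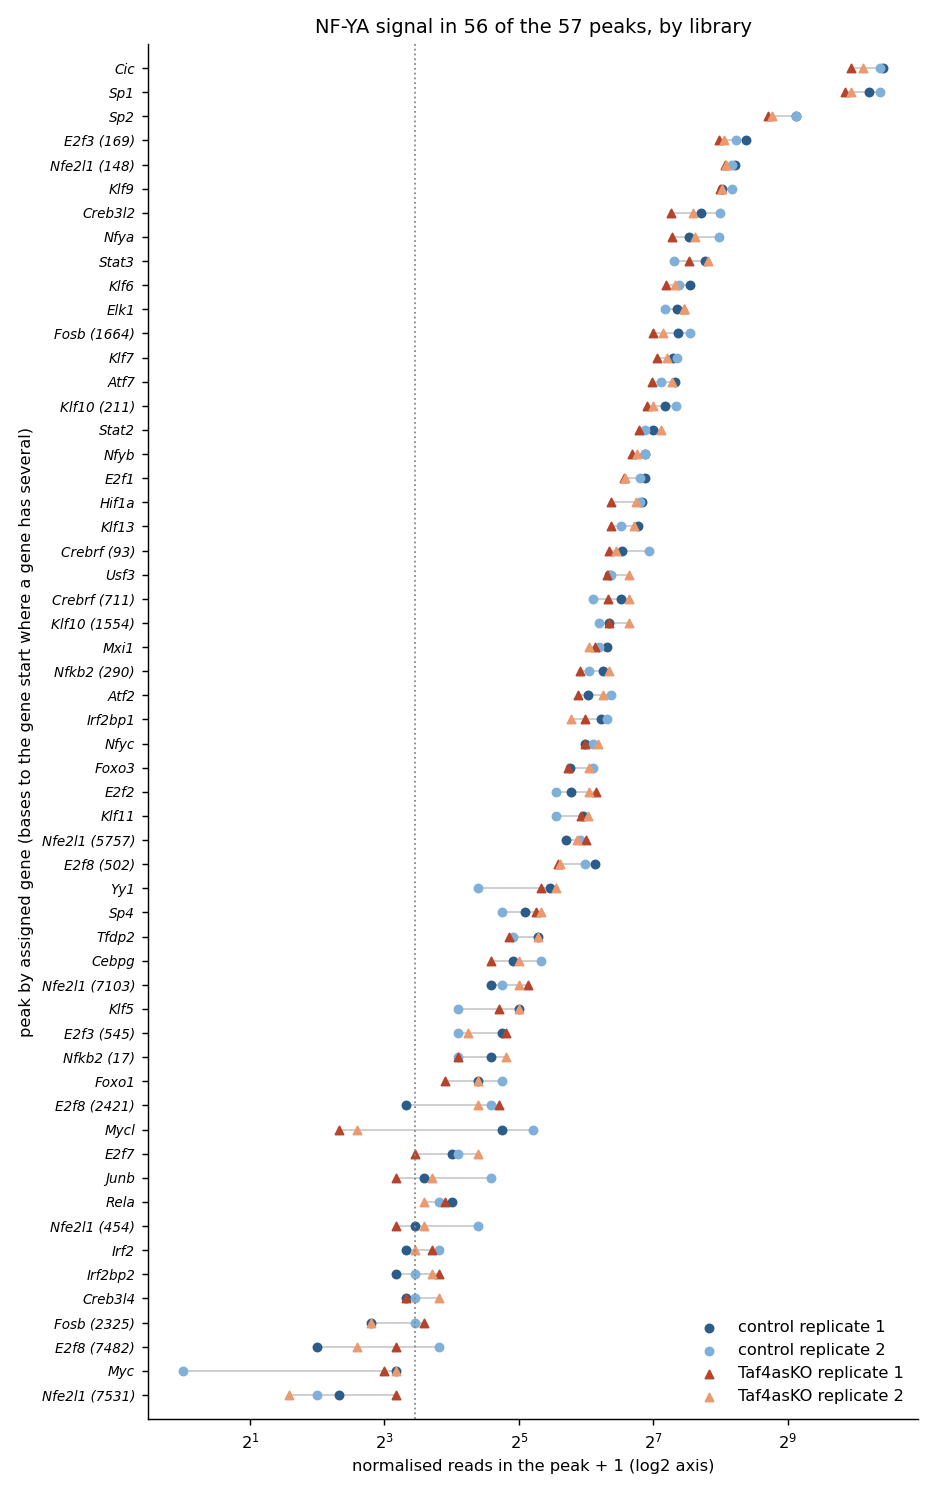
Normalised reads + 1 in 56 of the 57 peaks (log2 axis), ordered by mean, in the 2 control libraries (blue circles) and the 2 Taf4asKO libraries (red triangles). Grey lines join the lowest and highest library, the dotted line marks a value of 10, and numbers behind a symbol are bases to the assigned start. Red lies left of blue at the top (*Cic*, *Sp1*, *Sp2*) and far left of it at *Mycl*.

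For the NF-Y subunits, the *Nfya* peak had 183 and 251 in control against 154 and 195 in Taf4asKO, and the ranges overlapped. The *Nfyb* peak had 116 and 117 in control against 102 and 107 in Taf4asKO, a small difference without overlap. *Nfyc* had 62 and 68 in control against 62 and 71 in Taf4asKO. The log2 differences were -0.31 ± 0.19 for *Nfya*, -0.16 ± 0.16 for *Nfyb* and 0.03 ± 0.20 for *Nfyc* (SE), and 0 of 3 passed with limma (0 also at an unadjusted p under 0.05, against 0.948% and 17.9% of all tested peaks). Leaving out each library in turn moved the *Nfya* difference between -0.53 and -0.08. With equal totals the differences were -0.16 for *Nfya*, -0.012 for *Nfyb* and 0.17 for *Nfyc*.

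E2F and DP proteins form dimers that drive or block S-phase genes, and 6 of their genes held 9 peaks, all with CCAAT in the central 200 bases. *E2f3* had 331 and 300 in control against 250 and 264 in Taf4asKO, without overlap. The difference was -0.29 ± 0.13 on the log2 scale (SE, limma adjusted p = 0.277), and -0.15 with equal totals (limma adjusted p = 0.411). *E2f1* (116 and 111 against 94 and 95) and the *E2f8* peak near its start (69 and 62 against 47 and 48) were also lower in both Taf4asKO libraries, whereas *E2f2* had 54 and 46 in control against 70 and 65 in Taf4asKO and was higher in both. E2F1 and E2F2 are activators and E2F8 is an atypical repressor. The second *E2f8* peak, 2421 bases upstream, had 9 and 23 against 25 and 20, the largest difference in size of the family at 0.59 ± 0.44 (SE, limma adjusted p = 0.488), with overlap. This difference rested on the control libraries, as it was -0.039 without control replicate 1 and 1.22 without control replicate 2. With limma 0 of the 8 tested E2F and DP peaks passed (1 at an unadjusted p under 0.05), where 0.948% and 17.9% of all tested peaks did.

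The KLF family encodes zinc finger factors of growth and differentiation, and 8 peaks in 7 of its genes were tested. *Klf9* was the strongest, with 259 and 287 in control against 254 and 259 in Taf4asKO, and *Klf6* had 186 and 166 against 145 and 159. *Klf6*, an early response gene, was lower in both Taf4asKO libraries (-0.21 ± 0.15 SE, limma adjusted p = 0.484), while at *Klf9* the difference was -0.09 ± 0.13 (SE, limma adjusted p = 0.747). Leaving out a library moved the *Klf6* difference between -0.29 and -0.13 and that of *Klf9* between -0.16 and -0.01, and scaling to equal totals gave -0.07 at *Klf6*. *Klf5*, a factor of proliferating cells, had 31 and 16 against 25 and 31 and the largest difference in size of the family, 0.31 ± 0.35 (SE, limma adjusted p = 0.666, between -0.15 and 0.76 when a library was left out). The 2 *Klf10* peaks pointed in opposite directions in value, with 143 and 160 against 119 and 126 near the assigned start and 80 and 72 against 80 and 99 at the alternative start, and a difference between them was not tested.

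Among the bZIP factors, *Creb3l2* and *Fosb* each held a strong peak, and *Junb* and *Cebpg* weak ones. *Creb3l2*, which encodes a membrane-bound factor of the secretory pathway, had 208 and 254 in control against 153 and 192 in Taf4asKO. Its Taf4asKO values were both lower (-0.42 ± 0.17 SE, limma adjusted p = 0.233), the largest difference in size among the 6 ATF and CREB peaks. It lay between -0.58 and -0.26 when a library was left out. The *Fosb* peak at 1664 bases had 164 and 186 against 127 and 141, also without overlap (-0.38 ± 0.16 SE, limma adjusted p = 0.242). *Junb*, its AP-1 partner, had 11 and 23 against 8 and 12 (-0.65 ± 0.47 SE, limma adjusted p = 0.480) in a peak of 77 bases, and leaving out a library moved this difference between -1.15 and -0.15. *Cebpg*, a C/EBP factor of the amino acid stress response, had 29 and 39 against 23 and 31 (-0.32 ± 0.29 SE, limma adjusted p = 0.572, between -0.53 and -0.11 when a library was left out).

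*Nfe2l1* held 5 peaks, more than any other gene selected. The strongest, 148 bases from the assigned start, had 296 and 287 in control against 268 and 269 in Taf4asKO (-0.12 ± 0.13 SE, limma adjusted p = 0.643). The peaks at the alternative starts had 51 and 59 against 63 and 57, and 23 and 26 against 34 and 31. The last of these was higher in both Taf4asKO libraries, and the strongest was lower in both. The weak peak 454 bases from the start had 10 and 20 against 8 and 11 (-0.55 ± 0.47 SE, limma adjusted p = 0.554, between -1.01 and -0.08 when a library was left out), and the peak at 7531 bases was too weak to test. The 5 peaks share 1 gene and are no replicates of each other.

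In the signalling-activated families, *Stat3*, the transducer of IL-6 type cytokines, had 216 and 157 in control against 183 and 224 in Taf4asKO, with overlap (0.14 ± 0.19 SE, limma adjusted p = 0.718, between -0.09 and 0.36 when a library was left out). *Elk1* had 162 and 144 in control against 175 in both Taf4asKO libraries. It was the strongest peak that was higher in both Taf4asKO libraries, by 0.20 ± 0.15 (SE, limma adjusted p = 0.505). The *Elk1* difference lay between 0.11 and 0.28 when a library was left out and was 0.34 with equal totals. *Nfkb2*, which encodes the p100 precursor, had 75 and 65 against 59 and 80. *Rela*, which encodes the p65 subunit, had 15 and 13 against 14 and 11 in a peak 5071 bases from its start. *Irf2bp2*, an IRF2-binding corepressor, had 8 and 10 against 13 and 12, the largest difference in size among the 6 STAT and IRF peaks (0.44 ± 0.44 SE, limma adjusted p = 0.618).

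Of the forkhead genes, *Foxo3* had 53 and 68 in control against 52 and 65 in Taf4asKO, nearly the same values. *Foxo1*, which restrains growth downstream of insulin signalling, had 20 and 26 against 14 and 20 (-0.42 ± 0.34 SE, limma adjusted p = 0.521, between -0.67 and -0.18 when a library was left out) in a peak 42 bases upstream of the start.

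The other 28 peaks included those of *Atf2*, *Atf7*, *Creb3l4*, *Crebrf* (2 peaks), *E2f1*, *E2f2*, *E2f3* (its weaker peak), *E2f7*, *E2f8* (2 peaks), *Tfdp2*, *Fosb* (its weaker peak), *Klf7*, *Klf10* (2 peaks), *Klf11*, *Klf13*, *Nfkb2* (its weaker peak), *Nfe2l1* (3 peaks), *Usf3*, *Sp4*, *Irf2*, *Irf2bp1* and *Stat2*, among others. They had means between 4.25 and 149, and those tested differed by -0.45 to 0.43 on the log2 scale, with a smallest limma adjusted p of 0.281. Both Taf4asKO libraries were below both control libraries in 6 of the 25 tested (24%, against 28.6% of all tested peaks) and above in 3 (12%, against 19.3%), namely *E2f2*, *Sp4* and *Nfe2l1* at 7103 bases. Beside *E2f1*, *E2f8* and *Klf10* given above, the lower ones were *Klf7*, *Crebrf* and *Irf2bp1*. *Klf7*, a KLF factor known from neurons, had 156 and 163 against 132 and 146. The *Crebrf* peak 93 bases from its start had 92 and 121 against 80 and 86, while its peak at 711 bases had 91 and 68 against 79 and 99 and overlapped. *Irf2bp1* had 74 and 78 against 62 and 54.

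Partner genes of these factors were counted from 10 lists of 75 genes in all, of which 22 genes held 29 peaks. Of these peaks 24 were tested and 0 passed with limma, with 8 (33.3%) at an unadjusted p under 0.05, against 17.9% of all tested peaks. The difference was below 0 in 17 (70.8%, against 53.8% of all tested peaks) and above 0 in 7. All 12 partner peaks with a mean of at least 100 were below 0, as were 84.7% of all tested peaks of that strength, and 5 of the other 12 were. MYC network partners held 6 peaks (4 below 0, 2 above), among them *Mxd4* with 608 and 613 in control against 460 and 488 in Taf4asKO and *Mxd1* with 359 and 365 against 251 and 318. MXD1 and MXD4 dimerise with MAX as antagonists of MYC, and both peaks were lower in both Taf4asKO libraries, with limma adjusted p of 0.138 for *Mxd4* and 0.235 for *Mxd1*. In the list of CREB and ATF coactivators the 3 tested peaks belonged to *Atf4*, *Ddit3* and *Atf6b*, which encode bZIP factors, and the peak of the coactivator gene *Ep300* was too weak to test. All 3 were below 0, including *Atf4*, the main factor of the integrated stress response (130 and 127 against 95 and 98, limma adjusted p = 0.231), and its target *Ddit3* (164 and 189 against 129 and 136, limma adjusted p = 0.216).

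In the list of Capicua partners the 5 tested peaks belonged to *Etv1*, *Etv4* and *Etv5*, which encode ETS factors, and *Atxn1* and *Atxn1l* held no peak. Of these peaks 3 were below 0 and 2 above, the latter both at *Etv1* (81 and 52 against 75 and 78, and 6 and 10 against 14 and 12). The stronger *Etv5* peak, at a gene that CIC is known to repress, had 406 and 434 in control against 297 and 359 in Taf4asKO (limma adjusted p = 0.204). The list of TEAD and SRF factors and coactivators held 4 tested peaks, all at *Srf* and *Mrtfa*, 3 below 0 and 1 above. The peak above 0, at *Mrtfa*, which encodes an SRF coactivator, lay 1729 bases from the start and had 11 and 3 against 32 and 20. This was the largest difference of the partner peaks (1.93 ± 0.55 SE, limma adjusted p = 0.130), without overlap. The *Srf* peak near its start had 169 and 209 against 117 and 148. E2F and DREAM partners held 2 tested peaks and NRF2 and MAF partners 2, each with 1 below 0 and 1 above. *Lin37*, a DREAM subunit, had 85 in both control libraries against 91 and 116. The HIF pathway (*Arnt*) and the JAK kinases and regulators (*Tyk2*) held 1 tested peak each, with log2 differences of -0.12 and -0.02. The AP-1 partners (*Maf*) and the NF-kB kinases and adaptors (*Ikbkg*) held 1 peak each, both too weak to test.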

How the data were processed

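CUT&RUN read pairs were processed by the authors. Per the labels, reads were trimmed with Trimmomatic 0.39, aligned to mm10 with STAR 2.7.11a, cleared of duplicates with Picard 3.1.1 and counted with featureCounts in a peak set common to all libraries, and the methods of the study add peak calling with MACS against IgG. The deposited score of each peak and library is this number after normalisation with DESeq2 (1.36.0 per the labels), rounded to whole numbers. Peaks were assigned by the authors to the nearest gene start within 10000 bases.

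Because the values were normalised, no count model was run. The genotypes (2 libraries each) were set against each other in limma (version 3.58.1, R 4.3.3), fitted to log2(value + 1) with a trended variance. Peaks whose mean was under 10 were left out, and p-values were adjusted with the Benjamini-Hochberg method over the remaining 4746 peaks. Replicate numbers in the labels mark no shared animal or day and were not used as a block. The reads behind the values were estimated from the value of 1 read in each library (0.431 to 3.26), and whole reads could not be recovered for the Taf4asKO libraries, whose values were rounded more coarsely than 1 read. The median peak held 4.91 to 41.7 reads, which sets the counting error of weak peaks.

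Peaks were placed on GENCODE M21 and motifs searched in the RefSeq genome GRCm38.p6 with pysam 0.24.0, taking deposited coordinates as 1-based. Positions of the assigned genes were identical in GENCODE M21 for 56 of 57 peaks. Named were peaks with a limma adjusted p under 0.05, the 12 strongest, the strongest and the most different tested peak of each family, and the strongest peaks of the NF-Y genes, *Cic*, *Sp1*, *Myc* and *Hif1a*. Other peaks given with values, partner genes included, were chosen with their values in view. The genes, families, partner lists and rule were chosen with earlier results of these data known. The values of 1 selected peak are not reported here by name.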

Additional observations from a re-analysis of the deposited data

How the results depend on the processing

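Of 45 calls among all tested peaks, 29 were lower in Taf4asKO (64.4%). Scaling to equal medians gave 129 calls (75.2% lower) with 4 among the growth and stress factor peaks, and scaling to equal totals 61 calls (50.8% lower) with 1. Without a minimum 0 peaks passed with limma among all (1015 at an unadjusted p under 0.05) and 0 among the growth and stress factor peaks (7 unadjusted). A minimum of 20 gave 126 calls and 0 among the growth and stress factor peaks (5 unadjusted), with *Mycl* below the minimum, and precision weights gave 227 and 2. The replicate block in limma gave 31 calls (90.3% lower), and 0 among the growth and stress factor peaks (6 unadjusted), with a limma adjusted p of 0.0574 at *Mycl*. Between same-numbered libraries, departures from the group means had r = -0.09 over tested peaks and 0.26 at a mean of at least 100, and the numbers mark no pairs in the labels. Leaving out each library in turn gave 0 calls throughout (227 to 1089 peaks unadjusted, 3 to 6 of the growth and stress factor peaks), where the lone library is assumed to vary like the other group, and the median log2 difference of the growth and stress factor peaks ranged from -0.24 to -0.07. A pseudocount of 5 gave 58 calls, 1 of them at *Mycl*. Counting only peaks within 200 bases of the assigned start lowered the share near the gene start from 66.7% to 42.1%. The cause of these changes was not tested.

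Of 302 fold changes of named peaks under alternatives, 275 kept direction and side of the threshold. Of the named peaks only *Mycl* had passed as fitted, and several alternatives gave 0 calls among all peaks. The side was thus largely fixed beforehand, and this count is no measure of how stable the results are. The sign turned, for peaks that had not passed, with equal totals at *Nfe2l1* (0.026), *Klf9* (0.057), *Nfkb2* (0.12) and *Foxo3* (0.097), and with weights at *Foxo3* (0.0047). Leaving out each library in turn, it turned over ranges of -0.093 to 0.36 at *Stat3*, -0.24 to 0.19 at *Nfkb2*, -0.066 to 0.13 at *Nfyc*, -0.22 to 0.13 at *Foxo3*, -0.021 to 1.05 at *Yy1*, -0.15 to 0.76 at *Klf5*, -0.039 to 1.22 at *E2f8* and -0.32 to 0.0032 at *Rela*. Weak peaks rest on few reads in control replicate 2.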
